A study of Homo sapiens with 6 samples.

Results

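The small and cytosolic heat shock proteins described here are 10 genes chosen by name: the small heat shock proteins HSPB8, HSPB1 and CRYAB, the cochaperone BAG3, the HSP70 genes HSPA1A, HSPA1B and HSPA8, the HSP90 gene HSP90AA1, the HSP110 gene HSPH1, and the transcription factor HSF1. They were 10 of 39282 genes in the deposited tables, and all 10 were among the 16855 genes that passed a filter on low counts. HSPB8 was included because it was higher in the TOV21G knockdown libraries, so its values in that line are given as a description, with no test. RNA-seq was carried out on PA-1, a line from an ovarian teratocarcinoma, and TOV21G, a line from an ovarian clear cell carcinoma. Each line was infected with lentivirus carrying a short hairpin RNA against MEX3A, sh-MEX3A#1 (hairpin 1) or sh-MEX3A#2 (hairpin 2), or with a scramble hairpin, sh-Ctrl (the control). MEX3A encodes an RNA-binding ubiquitin ligase. Each of the 6 combinations gave 1 library, no allele or drug differed between the libraries of a line by the labels, and all of them, the controls included, came from lentivirus-infected cells. The design text calls each hairpin line a clone, and nothing in the labels says whether separate cultures were sampled.

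Heat shock proteins are molecular chaperones. Small heat shock proteins hold unfolding proteins in large assemblies without using ATP, HSP70 binds exposed hydrophobic stretches and releases them in an ATP-driven cycle that HSP110 and BAG proteins help to reset, and HSP90 acts later, on clients such as kinases and steroid receptors. BAG3 joins HSPB8 to HSP70 in a complex that passes damaged proteins to autophagy. In unstressed cells HSF1 is held by chaperones, and when unfolded protein draws these away it forms trimers, binds heat shock elements made of inverted repeats of the 5 letters NGAAN, and activates many of these genes.

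The libraries held 14654628 to 19495162 expected counts, and levels of 1 gene were compared between libraries in CPM, the count scaled by the TMM-adjusted library total. A count of 0 leaves room for up to 3 counts, which were worth 0.152 to 0.201 CPM depending on the library. Such limits and intervals cover counting error only. MEX3A had 41.2 and 54.9 CPM with hairpins 1 and 2 in PA-1, against 137 CPM in its control, and 40.1 and 33.1 CPM in TOV21G, against 78.2 CPM in its control. Of 9 pluripotency and germ cell tumour genes listed as PA-1 markers, 9 passed 1 CPM in each PA-1 library and 4 did in each TOV21G library, where NANOG, LIN28B, TDGF1, L1TD1 and DPPA4 were at 0. The 7 TOV21G markers summed to 2756 and 4861 CPM with the hairpins and 7226 CPM in the control of TOV21G. The same 7 summed to 944 and 936 CPM with the hairpins and 187 CPM in the control of PA-1. GEO's source label calls both lines ovarian surface epithelial cells. Of 6 epithelial markers, 3 to 4 passed 1 CPM in each PA-1 library, with KRT7 at 0 in all 3, and 6 did in each TOV21G library. The 6 epithelial markers summed to 296 and 403 CPM with the hairpins, against 269 CPM in the control, in PA-1, and to 267 and 237 CPM, against 156 CPM, in TOV21G. The 9 blood and endothelial markers summed to 71.6 and 114 CPM, against 91.1 CPM, in PA-1 and to 1.19 and 2.82 CPM, against 0.390 CPM, in TOV21G, with HBB at 0 in all 6 libraries. The nuclear RNA NEAT1 stood at 270 and 273 CPM with the hairpins and 119 CPM in the control of PA-1, and at 1132 and 1067 CPM with the hairpins and 361 CPM in the control of TOV21G. MALAT1, another nuclear RNA, stood at 1302 and 1112 CPM with the hairpins and 909 CPM in the control of PA-1, and at 9423 and 18444 CPM with the hairpins and 4313 CPM in the control of TOV21G. Ribosomal protein genes took 4.80% and 5.02% of counts with the hairpins and 5.53% in the control of PA-1, and 4.54% and 4.24% with the hairpins and 4.99% in the control of TOV21G. What part any of these differences had in the values below was not tested.

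The 10 genes covered a wide range of levels. On the TPM scale, which divides by transcript length and so allows genes to be compared, HSPA8 and HSP90AA1 stood at the top in every library, with HSPA8 at 1614 to 2259 TPM and HSP90AA1 at 1047 to 1368 TPM. In the PA-1 control HSPH1 (176 TPM), HSPB1 (122 TPM) and HSF1 (77.2 TPM) followed, then HSPA1A (17.2 TPM), BAG3 (16.4 TPM), HSPA1B (7.56 TPM) and CRYAB (3.46 TPM), with HSPB8 listed at 0. In the TOV21G control HSPB1 (299 TPM) and CRYAB (176 TPM) came after the leading pair, ahead of HSF1 (46.0 TPM), HSPH1 (36.4 TPM), BAG3 (35.7 TPM), HSPA1B (24.5 TPM), HSPA1A (0.530 TPM) and HSPB8 (0.230 TPM). Neighbours in this order were often not separated by the spread over the 3 libraries of a line. In PA-1 HSPA1A (13.2 to 17.2 TPM) and BAG3 (16.4 to 18.1 TPM) overlapped, whereas HSPH1 (173 to 176 TPM) lay above HSPB1 (107 to 152 TPM) in every library. In TOV21G HSPB1 (180 to 299 TPM) and CRYAB (176 to 798 TPM) overlapped, as did HSF1 (42.0 to 49.7 TPM), HSPH1 (33.1 to 47.6 TPM) and BAG3 (35.7 to 43.0 TPM).

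**Figure D1:**
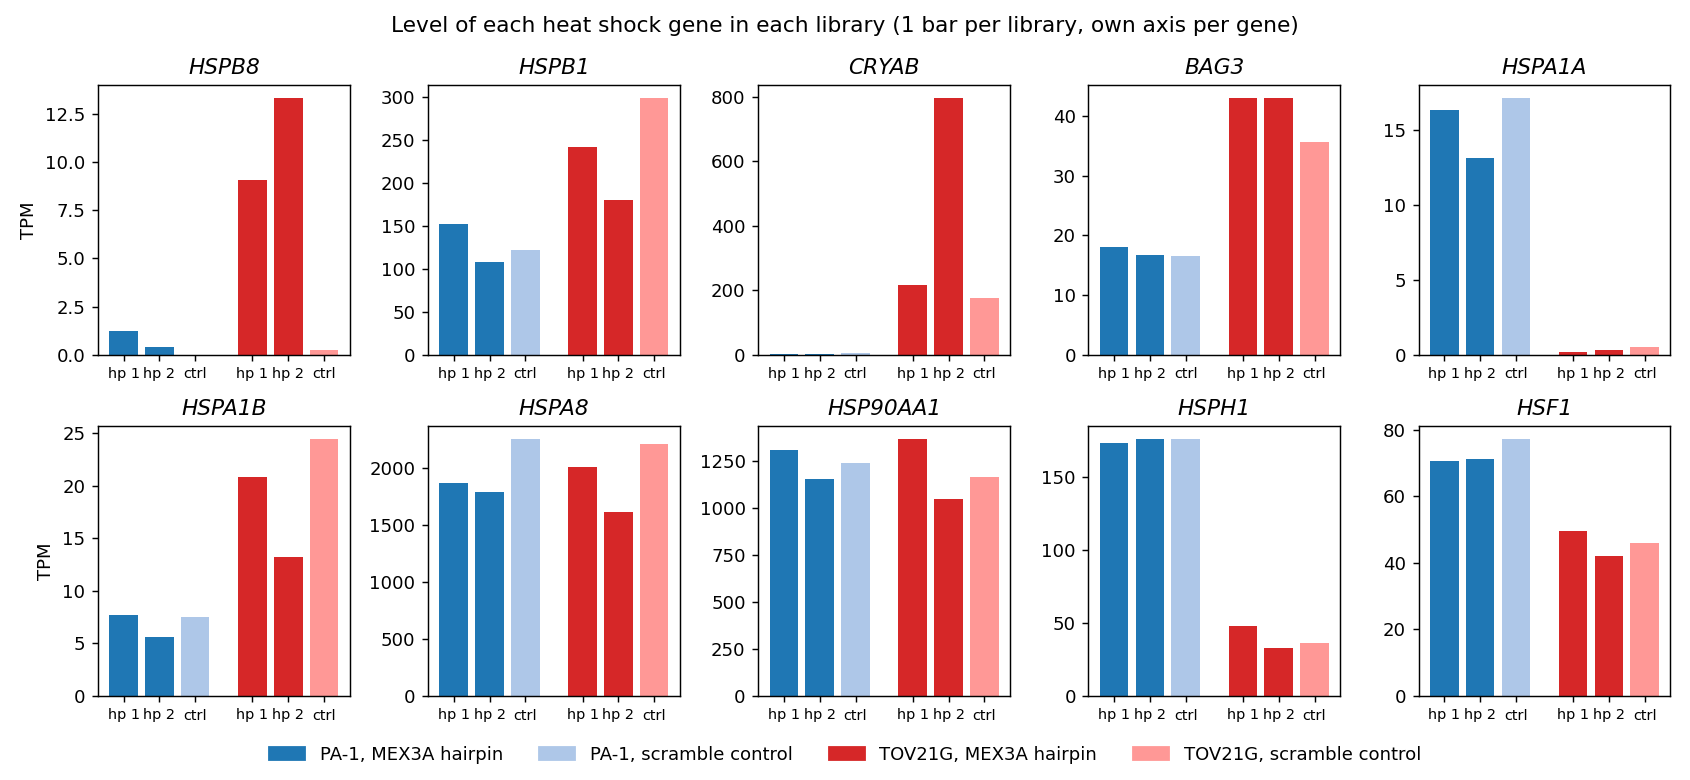
TPM of the 10 genes in each library, 1 panel per gene, each with its own linear axis from 0, and with hairpin 1, hairpin 2 (hp 1, hp 2) and the control (ctrl) from left to right for PA-1 and then TOV21G. Each bar is 1 library. HSPB8 reaches 9.09 and 13.4 TPM with the TOV21G hairpins, against 0.230 TPM in the TOV21G control. HSPA8 lies at 1614 to 2259 TPM and is highest in the control of each line, and HSP90AA1 lies at 1047 to 1368 TPM.

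The 3 libraries of TOV21G did not overlap the 3 of PA-1 in TPM for 7 of the 10 genes, the exceptions being HSPB8, HSPA8 and HSP90AA1. Among all genes tested the share without overlap was 59.6%, so that the count of 7 is near the background. In the controls CRYAB was 50.7-fold higher in TOV21G than in PA-1 on the TPM scale, HSPA1B 3.24-fold, HSPB1 2.45-fold and BAG3 2.17-fold. HSPA1A was 32.4-fold higher in the PA-1 control than in the TOV21G control, HSPH1 4.84-fold and HSF1 1.68-fold. HSPA1A and HSPA1B are near-identical copies, and their separate ratios depend on how reads were assigned between them. The sum of the pair was 24.6 CPM in the PA-1 control and 29.2 CPM in the TOV21G control. Each control was a single library and the lines were not tested against each other.

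HSPB8 is a small heat shock protein that works with BAG3. In TOV21G it gave 101 and 166 counts with hairpins 1 and 2, or 6.66 and 11.1 CPM, against 3 counts or 0.195 CPM in the control. Both hairpin libraries stood above the control, and the ratios were 34.2 with hairpin 1 (95% counting interval 11.4 to 168) and 57.2 with hairpin 2 (19.2 to 280). These intervals are wide because the control held only 3 counts. In PA-1 HSPB8 gave 14 and 6 counts with hairpins 1 and 2, or 0.849 and 0.305 CPM, and 0 counts in the control. Set against the floor of 3 counts in the control library, the observed level was at least 4.50-fold higher with hairpin 1 and at least 1.62-fold higher with hairpin 2. With the counting error of the hairpin libraries included, the 95% lower limits of these ratios were 3.20 and 0.951, so that hairpin 2 in PA-1 was not separated from its control. The edgeR quasi-likelihood test over all genes, which fits 1 mean per group and takes the spread from the pair of hairpins of each line, gave an adjusted p (Benjamini-Hochberg) of 1.00 for HSPB8 in PA-1, so that this difference did not pass the threshold of 0.05. Hairpin libraries stood above the control in both lines, at levels that in PA-1 rest on 14 counts or fewer. In bulk RNA, more cells with the transcript and more transcript per cell cannot be told apart.

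A search of the 250 bases before the annotated starts (RefSeq, GRCh38.p14) looked for the letters GAANNTTC and TTCNNGAA. Both read the same on either strand, and each is 2 units of a heat shock element. The search covered 8 of the 10 genes, as CRYAB had no entry and HSF1 was left out. GAANNTTC was found in 5.781% of 35116 such windows and TTCNNGAA in 6.618%. The window of HSPB8, on chromosome 12 before a gene spanning 119178931 to 119194746 on the plus strand, holds 1 match, GAATATTC, which begins 88 bases before the start. HSPA1A and HSPA1B, on chromosome 6, hold the same 8 letters 106 and 105 bases before their starts. The 3 windows are shown because HSPB8 and the HSPA1 pair share these letters. The windows of HSPA1A and HSPA1B agree at 94.38% of aligned bases (235 of 249), so their matches are not separate finds. How many windows hold these exact 8 letters was not counted. What part the letters have in the levels of these genes was not tested. Capitals mark the match.

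HSPB8, chr12:119178681-119178930, plus strand: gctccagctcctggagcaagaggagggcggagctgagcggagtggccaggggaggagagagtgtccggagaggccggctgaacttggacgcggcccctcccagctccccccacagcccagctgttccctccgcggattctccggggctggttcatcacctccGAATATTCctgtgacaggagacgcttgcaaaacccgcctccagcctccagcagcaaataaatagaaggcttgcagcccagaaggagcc
HSPA1A, chr6:31815293-31815542, plus strand: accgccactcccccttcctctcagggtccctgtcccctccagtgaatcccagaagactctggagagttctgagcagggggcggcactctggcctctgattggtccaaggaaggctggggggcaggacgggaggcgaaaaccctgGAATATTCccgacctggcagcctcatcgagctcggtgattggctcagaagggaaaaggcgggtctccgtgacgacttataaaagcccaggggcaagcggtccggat
HSPA1B, chr6:31827488-31827737, plus strand: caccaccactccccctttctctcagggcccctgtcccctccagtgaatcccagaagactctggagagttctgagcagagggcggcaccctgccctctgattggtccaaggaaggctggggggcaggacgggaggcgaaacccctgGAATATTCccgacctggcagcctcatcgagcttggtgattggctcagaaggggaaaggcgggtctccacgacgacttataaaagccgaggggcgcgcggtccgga

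HSPB1 holds 1 match of GAANNTTC, 182 bases before its start. The windows of HSPA8 and of 1 of the 2 listed starts of HSP90AA1 hold the longer form GAANNTTCNNGAA or its reverse complement, found in 0.4414% of the windows, while BAG3 and HSPH1 hold none of these letters. A match is a run of letters and not a measured binding site.

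**Figure D2:**
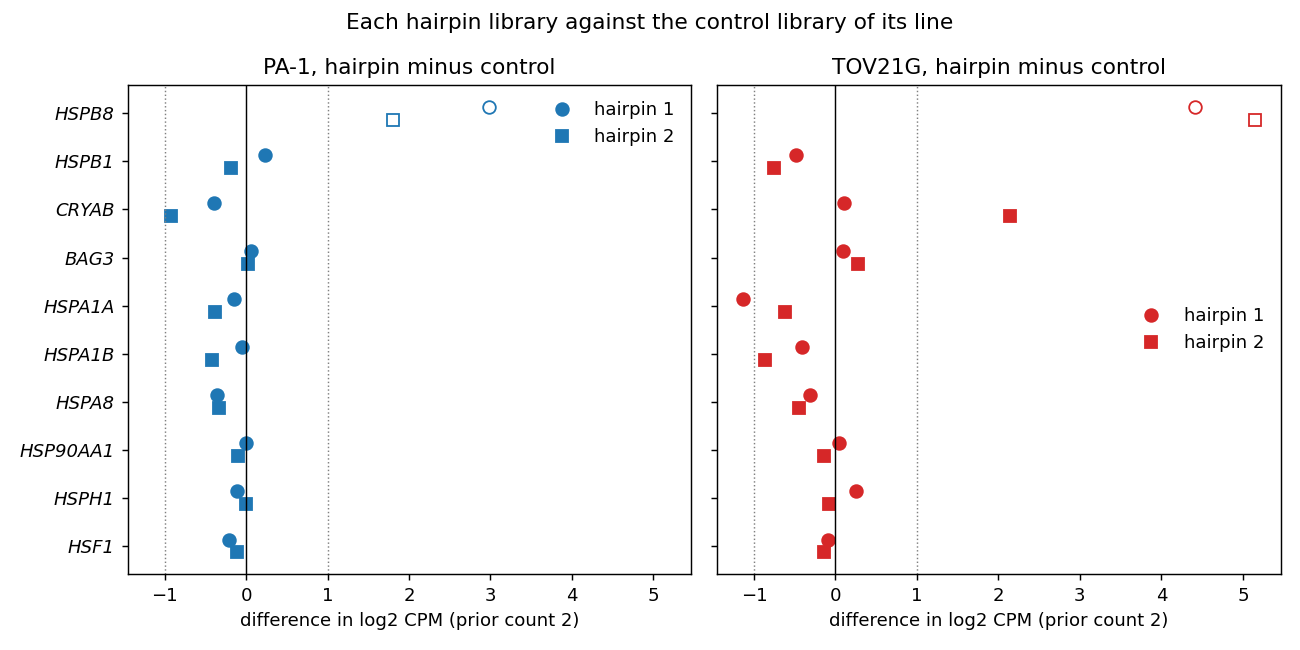
Difference in log2 CPM (prior count 2) of each hairpin library from the control of its line for the 10 genes, with hairpins 1 and 2 as separate symbols. Open symbols mark genes with 3 or fewer counts in the control, whose differences depend on the prior count. HSPB8 lies at 2.98 and 1.80 in PA-1 and at 4.41 and 5.15 in TOV21G, CRYAB has 1 far point in TOV21G at 2.15, and most other points lie near 0.

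BAG3, the cochaperone that joins HSPB8 to HSP70, did not pass the test. It had 18.0 and 17.5 CPM with hairpins 1 and 2 in PA-1, against 17.3 CPM in the control. In TOV21G it had 45.3 and 51.7 CPM, against 42.6 CPM in the control. All 4 hairpin libraries stood above their controls, by little. The fitted log2 fold change came to 0.039 (SE 0.25) in PA-1 and to 0.19 (SE 0.25) in TOV21G, with edgeR adjusted p of 1.00 and 0.831.

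CRYAB, alpha B-crystallin, a small heat shock protein of lens and muscle that also binds intermediate filaments, was the gene of the 10 for which the hairpins of a line lay farthest apart in log2 CPM, in TOV21G. In TOV21G it had 52.0 CPM with hairpin 1 and 214 CPM with hairpin 2, against 48.2 CPM in the control. Hairpin 1 stood close to the control, at a ratio of 1.08 (counting interval 0.974 to 1.19), while hairpin 2 stood well above it, at 4.44 (4.09 to 4.81). In PA-1 CRYAB was near the lower end of detection, with 13 and 10 counts, or 0.788 and 0.508 CPM, against 17 counts or 1.07 CPM in the control. Both PA-1 hairpin libraries lay below the control. In the fit the log2 fold change was 1.46 (SE 0.86, edgeR adjusted p = 0.627) in TOV21G and -0.73 (SE 1.15, adjusted p = 1.00) in PA-1, and the difference between the lines' changes, 2.19 (SE 1.42, adjusted p = 1.00), did not pass either. Without the TOV21G hairpin 1 library CRYAB passed in TOV21G at a log2 fold change of 2.15 (SE 0.23, edgeR adjusted p = 0.0245, with the adjusted p between 0.0245 and 1.00 over all alternatives), with the single remaining hairpin library assumed to vary as those of PA-1 did. That fit called 8.93% of all genes, so that 1 call among the 9 genes tested is near the background. The hairpin 2 library of TOV21G, where CRYAB was highest, also held the most MALAT1 (18444 CPM), and the part of this in the CRYAB value was not tested.

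HSPB1 (HSP27), which forms oligomers that bind unfolding proteins and actin, was lower than the control with both TOV21G hairpins. It had 56.9 and 47.0 CPM there, against 79.5 CPM in the control. In PA-1 it had 32.9 and 24.5 CPM, against 27.9 CPM in the control, so that the hairpins fell on either side of it. Fitted log2 fold changes were -0.61 (SE 0.29, edgeR adjusted p = 0.573) in TOV21G and 0.039 (SE 0.30, adjusted p = 1.00) in PA-1. The 3 small heat shock proteins thus took different orders in TOV21G, with HSPB8 above the control with both hairpins, CRYAB far above it with hairpin 2 and HSPB1 below it with both.

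HSPA1A and HSPA1B encode the heat-inducible HSP70 and lie next to each other on chromosome 6, at 31815543 to 31817942 and 31827738 to 31830254. Their transcripts agree at 95.99% of aligned bases (2300 of 2396), and 30.1% of the 100-base windows of HSPA1A and 31.2% of those of HSPA1B do not occur in the other, so that reads from the shared stretches fit either gene. HSPA1A had 15.1 and 12.9 CPM with hairpins 1 and 2 in PA-1, against 16.8 CPM in the control, and 0.198 and 0.336 CPM (3 and 5 counts) in TOV21G, against 0.584 CPM (9 counts) in the control. HSPA1B had 7.52 and 5.79 CPM in PA-1, against 7.80 CPM, and 21.5 and 15.6 CPM in TOV21G, against 28.6 CPM. Every hairpin library lay below its control for both genes in CPM, although HSPA1B in TPM stood at 7.70 with hairpin 1 and at 7.56 in the control of PA-1. Log2 fold changes of HSPA1A were -0.26 (SE 0.36) in PA-1 and -1.11 (SE 0.56) in TOV21G, those of HSPA1B -0.23 (SE 0.35) and -0.62 (SE 0.34), and none passed (edgeR adjusted p between 0.598 and 1.00).

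The balance within the pair set the lines apart rather than the hairpins from the control. HSPA1A took 66.8% (exact 95% binomial interval 61.7 to 71.5) and 69.0% (64.0 to 73.7) of the pair's counts with hairpins 1 and 2 in PA-1, against 68.3% (63.4 to 72.9) in the control. In TOV21G it took 0.909% (0.188 to 2.63) and 2.10% (0.686 to 4.83), against 2.00% (0.919 to 3.76) in the control. The intervals overlap within each line and do not meet between the lines. The sum of the pair was alike in both, at 22.6 and 18.7 CPM with the hairpins and 24.6 CPM in the control of PA-1, and 21.7 and 16.0 CPM with the hairpins and 29.2 CPM in the control of TOV21G. The expected counts of both genes were whole numbers (within 0.005) in 6 of 6 libraries, against 2 of 6 for HSP90AA1, so that no fractional sharing of reads is visible in them. The sum does not depend on how reads were assigned within the pair, but it would miss reads left out for fitting both genes. Whether such reads were left out was not tested, so the level of the pair may be too low.

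**Figure D3:**
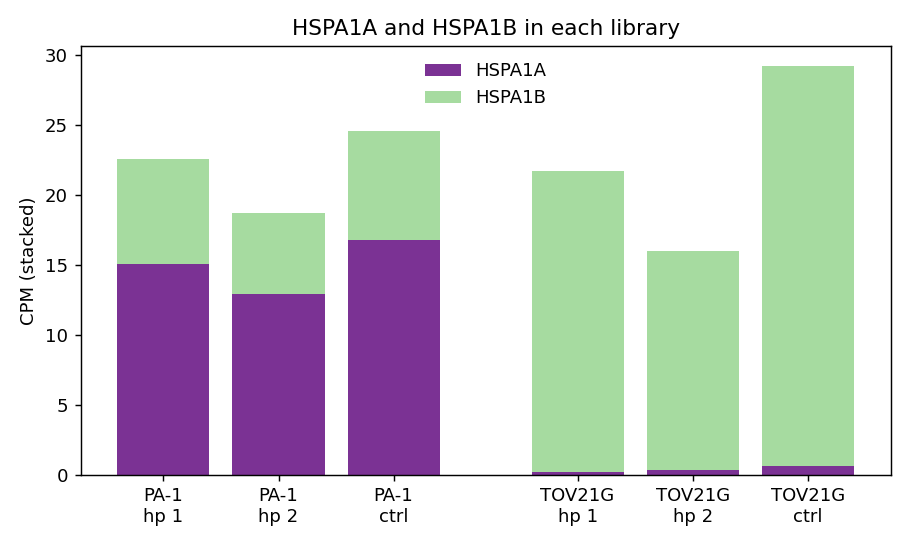
HSPA1A and HSPA1B in the 6 libraries, with the hairpin libraries left of the control in each line. HSPA1A holds 66.8% to 69.0% of the pair's counts in PA-1 and 0.909% to 2.10% in TOV21G, while the summed level lies between 16.0 and 29.2 CPM in all 6.

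HSPA8 (HSC70) is the constitutive HSP70, HSP90AA1 the inducible cytosolic HSP90, and HSPH1 an HSP110 that acts as a nucleotide exchange factor for HSP70. HSPA8 and HSP90AA1 were the abundant ATP-driven chaperones of the set in both lines, and HSPH1 was lower. HSPA8 had 1616 and 1644 CPM with hairpins 1 and 2 in PA-1, against 2067 CPM in the control, and 1848 and 1690 CPM in TOV21G, against 2299 CPM in the control. All 4 hairpin libraries stood below their controls by a similar step. Its log2 fold changes were -0.34 (SE 0.21, edgeR adjusted p = 1.00) in PA-1, -0.38 (SE 0.21, adjusted p = 0.610) in TOV21G and -0.36 (SE 0.15, adjusted p = 0.617) as the mean of both lines, so that this difference did not pass the test in either line or over both. With PA-1 fitted alone the SE of HSPA8 there was 0.12, and the adjusted p was 0.658.

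HSP90AA1 had 1687 and 1577 CPM with the hairpins in PA-1, against 1686 CPM in the control, and 1858 and 1632 CPM in TOV21G, against 1797 CPM in the control. Its hairpin libraries fell on both sides of the control in TOV21G, and in PA-1 hairpin 1 was level with the control and hairpin 2 below it. Log2 fold changes in the fit were -0.047 (SE 0.22) in PA-1 and -0.042 (SE 0.22) in TOV21G, with edgeR adjusted p of 1.00 and 0.983. HSPH1 had 239 and 259 CPM in PA-1, against 258 CPM, and 70.2 and 55.8 CPM in TOV21G, against 58.8 CPM, on both sides of the control in TOV21G, and in PA-1 level with it for hairpin 2 and below it for hairpin 1. Its fitted log2 fold changes were -0.051 (SE 0.26, edgeR adjusted p = 1.00) in PA-1 and 0.10 (SE 0.26, adjusted p = 0.936) in TOV21G.

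HSF1, the factor that drives the heat shock response, had 57.2 and 61.3 CPM with the hairpins in PA-1, against 66.4 CPM in the control, and 41.9 and 40.8 CPM in TOV21G, against 44.8 CPM in the control. All 4 hairpin libraries lay slightly below their controls in CPM, whereas in TPM the TOV21G hairpin 1 library (49.7) lay above its control (46.0). Fitted log2 fold changes came to -0.16 (SE 0.23) in PA-1 and -0.12 (SE 0.23) in TOV21G, with edgeR adjusted p of 1.00 and 0.899. HSF1 is controlled mainly at the protein level, which RNA counts do not measure.

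Read over the 10 genes, 2 lay above the control with both hairpins in PA-1 (HSPB8 and BAG3) and 5 lay below it, against 33.8% and 34% of all genes tested. The 5 depend on the scaling, since DESeq2 size factors put HSP90AA1 and HSPH1 below as well, which gives 7, and TPM gives 4. In TOV21G 3 lay above (HSPB8, CRYAB and BAG3) and 5 below (4 in TPM), against 31.3% and 31.9% of all genes. The place of HSPB8 among the 3 was set by its selection, so that the count above cannot be weighed against that share. BAG3 lay above the control in all 4 hairpin libraries, as 14.3% of all genes did. HSPA1A, HSPA1B, HSPA8 and HSF1 lay below it in all 4, as 15% did. HSPB8 also lay above it in all 4, which in TOV21G its selection set. Libraries of 1 line share their control in these counts. On log2 CPM with a prior count of 2, HSPB8 was the 1 gene of the 10 past 2-fold above the control with both hairpins, a size that its selection set in TOV21G and that 3.36% of all genes reached in PA-1 and 4.26% in TOV21G. In PA-1 this rests on the prior count, since hairpin 2 had 6 counts against 0, and the size was not reached on TPM with a pseudocount of 1. None of the 10 was 2-fold lower with both hairpins in either line, against 0.682% and 3.36% of all genes. The median fitted log2 fold change of the 10, HSPB8 included, was -0.11 in PA-1 and -0.079 in TOV21G, beside 0 and 0.024 over all genes. The edgeR test called 0 of the 10 in PA-1 and 0 of the 9 other than HSPB8 in TOV21G, as it called 0% of the 16855 genes, where 2.57% in PA-1 and 9.56% in TOV21G had an unadjusted p under 0.05. DESeq2 called 0.232% and 1.89% of the genes to which it gave an adjusted p, and none of these either. For the mean of both lines and for the difference between the lines edgeR also called 0%, with 8.21% and 3.81% at an unadjusted p under 0.05, and DESeq2 called 1% and 0.13%, with 0 of those 9 among them. The edgeR test also did not call MEX3A, the target of the hairpins, in either line. Its log2 fold changes were -1.51 (SE 0.28) in PA-1 and -1.10 (SE 0.29) in TOV21G. DESeq2 called MEX3A in PA-1 (adjusted p = 0.0478) and not in TOV21G (adjusted p = 0.164). A gene that did not pass may thus still differ.

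The wider chaperone network was read from lists that, like the 10 genes, were drawn up with earlier results of these data known. Of 77 further genes, 68 passed the filter, and edgeR called 0 of them in either line. Among all genes tested, 34% in PA-1 and 31.9% in TOV21G lay below the control with both hairpins. Above it lay 33.8% and 31.3%, and the medians were 0 and 0.024. These values are the background for every list here and below, and no list was tested as a set. The list of 16 cochaperones of HSP70 and HSP90 holds the BAG family without BAG3. BAG3, counted among the 10 genes, lay above the control in every hairpin library. Of the 16, 12 genes in PA-1 and 10 in TOV21G lay below the control with both hairpins, and 4 and 2 lay above it. Their median log2 fold changes were -0.14 and -0.23. The 10 chaperonins, the barrel-shaped folding machines, had 6 and 7 genes below and 3 and 0 above, with medians of -0.042 and -0.26. CCT5, a subunit of the cytosolic chaperonin TRiC, had 250 and 240 CPM with the TOV21G hairpins, against 383 CPM in the control, a log2 fold change of -0.64 (SE 0.22, edgeR adjusted p = 0.486). CHORDC1, an HSP90 cochaperone, had 63.2 and 42.7 CPM with the PA-1 hairpins, against 83.4 CPM in the control (log2 fold change -0.66, SE 0.31, edgeR adjusted p = 1.00).

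The J-domain proteins (HSP40), which bring clients to HSP70 and start its ATPase, had 7 of 13 genes above the control with both hairpins in TOV21G, 0 below and a median of 0.37. In PA-1 6 lay above and 4 below, with a median of 0.065. DNAJB4 had 42.0 and 58.0 CPM with the TOV21G hairpins, against 17.8 CPM in the control, a log2 fold change of 1.49 (SE 0.32) at an edgeR adjusted p of 0.382 and a DESeq2 adjusted p of 0.0290. In the other HSP70 and HSP110 genes (10 of 12 passed the filter) the median was 0.0072 in PA-1 and 0.21 in TOV21G, with 2 and 4 above and 4 and 2 below. HSPA4L, an HSP110 relative, had 21.8 and 31.3 CPM with the PA-1 hairpins, against 10.2 CPM in the control (log2 fold change 1.38, SE 0.33, edgeR adjusted p = 1.00). For the mean of both lines HSPA4L had a log2 fold change of 0.96 (SE 0.22) at an edgeR adjusted p of 0.547 and a DESeq2 adjusted p of 0.0494. The heat-induced HSP70 gene HSPA6, which is near silent in unstressed cells, had 0 and 1 counts with the PA-1 hairpins and 0 in the control, and 0 and 11 counts with the TOV21G hairpins and 0 in the control.

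Of 24 textbook HSF1 targets, a list that holds 8 of the 10 genes, 23 passed the filter. In PA-1 5 lay above the control with both hairpins and 12 below, with a median log2 fold change of -0.072. In TOV21G 6 lay above and 10 below, with a median of -0.13. DNAJB1, a classic target, had 77.6 and 75.4 CPM with the PA-1 hairpins, against 68.6 CPM in the control, and 157 and 106 CPM with the TOV21G hairpins, against 89.1 CPM in the control. Its log2 fold changes were 0.16 (SE 0.32) in PA-1 and 0.56 (SE 0.32, edgeR adjusted p = 0.622) in TOV21G, and neither passed. DNAJB1 thus lay above the control in both lines, whereas more genes of the list lay below it.

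The partners of BAG3 and HSPB8 in selective autophagy numbered 9, and in PA-1 6 of them lay above the control with both hairpins and 1 below, with a median of 0.33. In TOV21G 4 lay above and 2 below, with a median of 0.19. FLNC, filamin C, an actin cross-linker of muscle that this complex is known to clear, had 348 and 444 CPM with the PA-1 hairpins, against 99.6 CPM in the control. In TOV21G FLNC had 65.2 and 333 CPM, against 16.8 CPM in the control. Every hairpin library stood more than 2-fold above its control. For FLNC the fit gave log2 fold changes of 1.99 (SE 0.99, edgeR adjusted p = 1.00) in PA-1 and 3.57 (SE 1.09, edgeR adjusted p = 0.467, DESeq2 adjusted p = 0.00132) in TOV21G, so that the call in TOV21G depended on the tool. SYNPO2, an actin-binding adaptor that works with BAG3, had 6.99 and 3.36 CPM with the TOV21G hairpins, against 0.909 CPM in the control (log2 fold change 2.499, SE 0.74, edgeR adjusted p = 0.457). WIPI1, an autophagosome protein, had 9.58 and 11.04 CPM with the PA-1 hairpins, against 6.60 CPM in the control (log2 fold change 0.64, SE 0.34, edgeR adjusted p = 1.00). Of the other small heat shock proteins 2 of 8 passed the filter, HSPB11 and HSPB7, of which HSPB7 had 1 and 3 counts with the PA-1 hairpins and 0 in the control, and 0 and 17 counts with the TOV21G hairpins and 0 in the control.

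**Figure D4:**
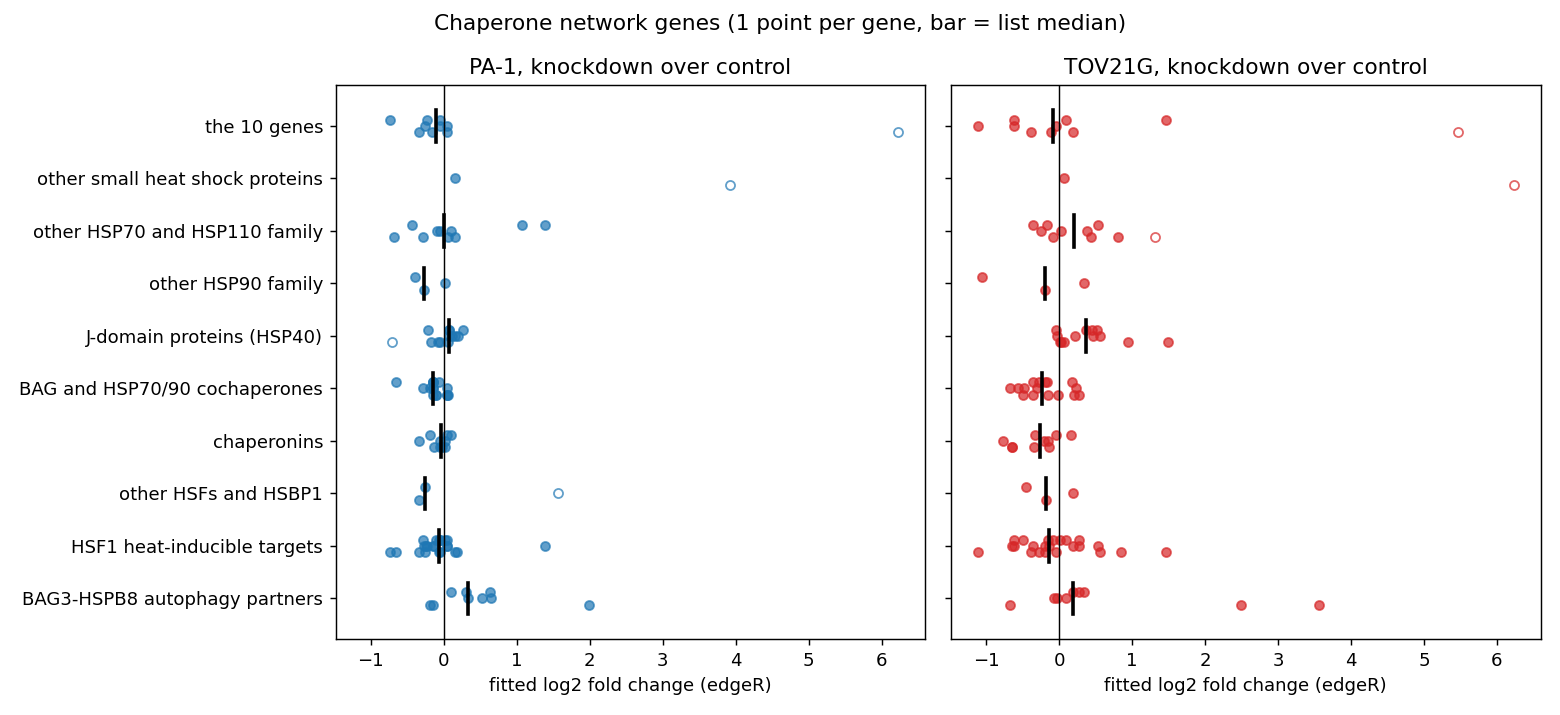
Fitted log2 fold change (edgeR), knockdown over control, of the genes of each chaperone list that passed the filter, with 1 point per gene and a black bar at the median of lists of 3 or more. Open points mark genes with 3 or fewer counts in the control, whose fitted values are no bound. The medians lie between -0.27 and 0.37, and FLNC at 1.99 (PA-1) and 3.57 (TOV21G) is the far filled point of the autophagy partners.

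Over the 6 libraries, with each line centred on its own mean of log2 CPM, genes most like HSPB8 among 9990 with at least 5 CPM were CLSTN3, a neuronal cadherin-family protein (Pearson r = 0.998), ARMCX5-GPRASP2 (0.995), the polarity kinase MARK2 (0.994) and SEC22A (0.994). CLSTN3 had 39.7 and 36.5 CPM with the PA-1 hairpins, against 30.1 CPM in the control, and 77.8 and 83.5 CPM with the TOV21G hairpins, against 49.1 CPM in the control. These values describe 6 libraries that share 2 controls and carry no test.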

How the data were processed

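Poly(A)-selected RNA of 6 libraries from 2 established cell lines was sequenced, with KAPA mRNA HyperPrep and dUTP strand marking per the labels' protocols. The submitters' processing notes name cutadapt 1.12, STAR 2.5.3a, RSEM 1.2.31, edgeR 3.26.8 and hg38. The strand setting of the counting is not given in the sources used here, so genes with antisense partners or near-identical copies are less certain. Per the file headers, the authors deposited RSEM gene tables with the expected count, TPM, FPKM and transcript lengths per gene. FPKM was not used in any comparison.

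Expected counts were rounded to whole numbers, scaled by TMM and tested with edgeR 4.0.16 in R 4.3.3 (quasi-likelihood F test, 1 mean per group, 4 groups, 2 residual degrees of freedom, filterByExpr, Benjamini-Hochberg over 16855 genes, threshold 0.05). Each control is 1 library, assumed to vary as the hairpins did. Hairpins 1 and 2 are different reagents and may share a culture history, so a p-value here reflects the spread among these libraries alone, which may be technical. The biological coefficient of variation was 0.295 in the fit of both lines, and 0.164 in PA-1 and 0.387 in TOV21G fitted alone, so the shared value lies above that of PA-1 and below that of TOV21G. The SE was taken as |log2 fold change| over the root of the F statistic. Differences of single hairpins used log2 CPM with a prior count of 2 and no test. DESeq2 1.42.0 was an alternative, as were other scaling and filters, leaving out each hairpin library, each line alone, the hairpin number as a block and HSPA1A and HSPA1B summed. Genes outside the 10 were named where they passed 2-fold with both hairpins of a line or were among the 4 of the lists with the smallest p in a line, and DNAJB1, HSPA6, HSPB7 and HSPB11 after their values were seen. Promoter windows came from RefSeq (GRCh38.p14). The script for the tests was run on simulated data with changes in well-counted genes only, at spreads below that of TOV21G fitted alone. That check does not cover genes with few counts, such as HSPB8. The 10 genes and all lists were chosen with earlier results of these data known. Between the hairpin libraries of a line, counts differed by more than sampling noise, so none was merged.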

Additional observations from a re-analysis of the deposited data

Results flagged for a closer look

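CRYAB lay on opposite sides of the control in the lines, with both hairpin libraries above it in TOV21G and both below it in PA-1, and passed the test in neither line. The counting intervals of TOV21G hairpin 1 and of both PA-1 hairpins include a ratio of 1. The mean log2 CPM difference from the control was 1.13 in TOV21G and -0.65 in PA-1, which differ by 1.78. The edgeR test of the difference between the lines' changes gave 2.19 (SE 1.42, adjusted p = 1.00) and did not pass. The TOV21G value rests on hairpin 2 (214 CPM, against 48.2 CPM in the control), since hairpin 1 (52.0 CPM) lay close to the control. The PA-1 values rest on 13 and 10 counts with the hairpins, against 17 in the control.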

How the results depend on the processing

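Of 379 recomputed log2 fold changes of the 10 genes, 15 reversed and 1 was newly called. The other 363 kept their direction and call or, for HSPB8 where it was not tested, moved by less than the spread between hairpins, with 1 change of sign among them (HSPB8 in the TOV21G minus PA-1 difference, -1.28 to 0.12 over the libraries left out). No reversed value had been called, and the cause of the reversals was not tested. Leaving out 1 hairpin library at a time gave, in PA-1, -0.19 to 0.24 for HSPB1, -0.095 to 0.0027 for HSP90AA1 and -0.11 to 0.0059 for HSPH1, and in TOV21G, -0.14 to 0.045 for HSP90AA1 and -0.078 to 0.25 for HSPH1. For the mean of both lines it gave -0.31 to 0.71 for CRYAB, -0.093 to 0.0010 for HSP90AA1 and -0.063 to 0.10 for HSPH1. For the TOV21G minus PA-1 difference it gave -0.10 to 0.020 for HSPA8, -0.095 to 0.088 for HSP90AA1 (-0.020 with no filter on low counts), -0.028 to 0.30 for HSPH1 and -0.0035 to 0.097 for HSF1. The newly called value was CRYAB in TOV21G without hairpin 1, so that the number of the 10 genes called there ranged over 0 to 1.

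The number of all genes called depended on the tool. Where edgeR called 0, DESeq2 called 36 in PA-1. It called 226 in TOV21G, with 133 for both lines averaged and 19 for the difference. Leaving out libraries moved the edgeR count over 0 to 1489 in TOV21G (the high value without TOV21G hairpin 1) and 0 to 526 for the mean. The hairpin number as a replicate block called 13 genes (PA-1), 36 (TOV21G) and 22 (both lines averaged), and 0 of the 10 genes. The lines' hairpin 1 minus hairpin 2 differences correlated across genes at r = 0.236, with only 2 pairs that share a reagent number and no stated culture, so the numbers were not taken to pair the libraries. The number of genes at least 2-fold higher with both PA-1 hairpins fell to 0 of the 10 in TPM with a pseudocount of 1, against 1 in CPM. Fitted alone, TOV21G lost HSPA1A to the filter. Depth limits HSPB8 in both controls, CRYAB in PA-1 and HSPA1A in TOV21G, each with 17 or fewer counts.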
